A study of Mus musculus with 24 samples.

Results

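Hif3a, a gene for one of the alpha subunits of the hypoxia-inducible factors, gave a lower signal in skeletal muscle of HFD_Cont mice than of STD_Cont mice, with a mean at 38.1% of the STD_Cont mean. In HFD_O3 mice it stood at 52.2% of the STD_Cont mean. The other 9 genes of the oxygen-sensing system considered here were Hif1a and Epas1 (the other alpha subunits), Arnt (their partner), Egln1, Egln2, Egln3 and Hif1an (the oxygen-dependent hydroxylases), Vhl (the ubiquitin ligase subunit) and Vegfa (a secreted target). None of these 9 passed an adjusted p threshold of 0.05 in any comparison, by limma's moderated test on all 24 arrays with Benjamini-Hochberg adjustment over 19937 gene names. Of all gene names, 2.91% passed in HFD_Cont against STD_Cont (1.43% higher, 1.48% lower), 0.597% in HFD_O3 against STD_Cont (0.406% higher, 0.191% lower) and 0.0% in HFD_O3 against HFD_Cont. At an unadjusted p under 0.05, 2 of the 9 passed in HFD_Cont against STD_Cont, Arnt with a lower and Vegfa with a higher mean, where 16.6% of all gene names passed. In HFD_O3 against STD_Cont and in HFD_O3 against HFD_Cont 0 of the 9 did, where 11.2% and 7.08% of all gene names passed. The share among the 9 is thus near that of all genes.

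The 10 genes were chosen by name, and their probes are those that carry the gene's name in the scanner files. Hif3a was singled out because its difference between HFD_Cont and STD_Cont stood first among all genes by p, so its differences are given as a description with no test. HFD_O3 against STD_Cont uses the same STD_Cont arrays. The 10 genes are 10 of 19937 measured gene names, and they have 20 of the 56605 probes, of which 18 were kept by the filter on dim probes. That filter asked for a signal well above background on at least 6 of 8 arrays of at least 1 group.

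In the oxygen-sensing pathway an alpha subunit pairs with ARNT and binds short motifs in DNA near target genes. When oxygen is plentiful, the EGLN enzymes hydroxylate prolines of the alpha subunit, VHL then marks it for destruction, and HIF1AN hydroxylates an asparagine that blocks the recruitment of coactivators. HIF3A exists in several variants, and one mouse variant, known as IPAS, dampens the activity of the other alpha subunits. In skeletal muscle the pathway is known for its control of glycolytic genes and, through VEGF-A, of capillary supply. Since the alpha subunits are controlled largely at the level of protein stability, mRNA levels do not report on the activity of the pathway.

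The samples are 24 mouse skeletal muscles, 8 in each of 3 groups. HFD_Cont mice were of a control lineage on a high fat diet, HFD_O3 mice were of an omega-3 lineage on a high fat diet, and STD_Cont mice were of the control lineage on a standard, low fat diet. HFD_O3 against STD_Cont therefore differs in diet and lineage together, and no omega-3 lineage group on the standard diet was analysed here. Which muscle was taken, the strain, sex and age of the mice, the length of feeding and the origin of the omega-3 lineage are not stated in the labels. Total RNA was labelled with Cy3 and hybridised to one-colour Agilent arrays of 60-base probes. Nothing in the labels says that each array is a separate animal, so p-values measure the spread between these samples.

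The arrays lay on 3 slides of 8, in 2 rows, with every group on every slide. The rows were not balanced: row 2 of slide 1 and row 1 of slide 2 held 0 STD_Cont arrays, and row 2 of slide 2 held 0 HFD_Cont arrays. The 75th percentile of the signal lay between 161.9 and 293.2 intensity units, between 52.0% and 60.7% of spots were well above background, and 0 spots were saturated. All 12 skeletal muscle fibre markers looked at (among them Acta1, Ckm and Myh4) were well above background on all arrays, with a mean log2 level of 9.67 ± 0.10 in HFD_Cont, 9.68 ± 0.12 in HFD_O3 and 9.65 ± 0.10 in STD_Cont muscles (SD, n = 8 each). The mean level of 11 white adipocyte markers, 10 of them well above background on every array, ranged widely in each group. It ran from 0.64 to 3.73 in HFD_Cont, 0.51 to 3.34 in HFD_O3 and 0.44 to 3.18 in STD_Cont muscles. Its group means were 2.17 ± 0.94 in HFD_Cont, 1.47 ± 1.06 in HFD_O3 and 1.75 ± 0.91 in STD_Cont muscles (SD, n = 8 each). In HFD_O3 minus HFD_Cont 9 of the 11 markers were lower and 2 higher, with a median of -0.94, and 0 passed the threshold. In bulk RNA, fewer cells of a type and less RNA per cell cannot be told apart.

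Hif3a has 2 probes on the array, both on the minus strand of chromosome 7. One lies at chr7:17616855-17616914 (mm9) and carries every Hif3a value given below. The other lies upstream of it along the gene, at chr7:17637281-17637340 (mm9), and was well above background on 0 of 24 arrays. Vegfa has 4 kept probes, and the sequence of 1 is shown because its difference of HFD_Cont from STD_Cont was -0.01. The other Vegfa probes had a higher mean in HFD_Cont. That probe, A_55_P2741794 at chr17:46159226-46159282 (mm9, minus strand), holds the lysine- and arginine-rich stretch that is known from the longer, heparin-binding isoforms. Exon and UTR boundaries on mm9 were not used here. The probe sequences are printed 5′ to 3′ as in the array files.
Hif3a, probe not above background: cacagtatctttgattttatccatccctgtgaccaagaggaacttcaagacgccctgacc
Vegfa, stretch of the longer isoforms: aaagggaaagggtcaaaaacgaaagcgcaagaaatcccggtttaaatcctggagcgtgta

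The core of the element bound by the alpha subunit with ARNT is ACGTG or GCGTG. These letters were searched on both strands, which reads CACGT and CACGC as matches too, and overlapping matches were counted singly, so CACGTG counts once on each strand. Of the 10 genes, 9 matched a RefSeq promoter entry (GRCm38.p6), with 11 promoters between them. Epas1 was the gene without a match. In the 250 bases before the start, 8 of the 11 promoters held at least 1 such motif, against 38.6% of 32851 mouse promoters of the same length. The 8 include the second promoters of Egln2 and Vegfa, which lie downstream of the first start along the gene and may hold transcribed sequence. The GC content of the 11 windows ran from 48.0% to 86.0% and was not matched to that of all promoters. The 4 promoters shown are those of Hif3a, of Hif1a and Egln3, whose levels varied together across arrays, and of Vegfa, whose brightest probe varied against Hif3a. They are printed in the direction of the gene with the motifs in capitals.
Hif3a, chr7:17062428-17062677, minus strand: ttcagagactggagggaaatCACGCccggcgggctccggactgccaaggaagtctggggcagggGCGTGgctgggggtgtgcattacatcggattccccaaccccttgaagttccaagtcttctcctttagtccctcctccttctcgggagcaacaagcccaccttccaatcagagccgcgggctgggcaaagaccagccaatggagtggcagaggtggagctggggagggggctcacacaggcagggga
Hif1a, chr12:73907617-73907866, plus strand: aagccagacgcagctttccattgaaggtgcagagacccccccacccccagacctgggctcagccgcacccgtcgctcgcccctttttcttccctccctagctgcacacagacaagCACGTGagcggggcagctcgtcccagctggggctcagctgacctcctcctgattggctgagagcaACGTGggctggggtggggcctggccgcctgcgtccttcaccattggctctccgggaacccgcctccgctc
Egln3, chr12:54203875-54204124, minus strand: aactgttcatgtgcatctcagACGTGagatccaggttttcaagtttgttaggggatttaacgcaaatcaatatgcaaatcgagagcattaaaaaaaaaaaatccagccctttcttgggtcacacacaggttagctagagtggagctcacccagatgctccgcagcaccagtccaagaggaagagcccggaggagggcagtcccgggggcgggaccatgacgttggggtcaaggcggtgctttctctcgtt
Vegfa, chr17:46032378-46032627, minus strand: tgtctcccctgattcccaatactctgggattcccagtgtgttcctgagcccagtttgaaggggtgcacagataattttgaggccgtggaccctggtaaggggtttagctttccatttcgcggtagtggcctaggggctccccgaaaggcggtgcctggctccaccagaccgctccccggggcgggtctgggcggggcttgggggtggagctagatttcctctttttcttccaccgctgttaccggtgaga

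The Hif3a window held 2 matches, the Hif1a window 3 and the Egln3 window 1, while the Vegfa window shown, the first of its pair, held 0. Among the windows not shown, the first Egln2 promoter held 4 matches, Egln1 2, Arnt 1, the second Egln2 promoter 1 and the second Vegfa promoter 2, and Hif1an and Vhl held 0. A match describes the letters and is no evidence of binding, and a window with 0 matches says only that these letters are not in it.

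Levels below are log2 of the array's background-subtracted signal minus that array's 75th percentile, so that 0 is the level of the 75th percentile probe. Hif3a had a lowest level of -3.70, a median of -2.95 and a highest of -2.44 in HFD_Cont muscles. In HFD_O3 muscles it ran from -3.15 through a median of -2.50 to -1.83, and in STD_Cont muscles from -2.10 through -1.52 to -1.09. Every HFD_Cont array lay below every STD_Cont array, and the HFD_O3 arrays overlapped both groups. Over all gene names, 0.712% had HFD_Cont values that all lay below the STD_Cont values, and this gene was picked as one of them.

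The means were -2.96 ± 0.37 in HFD_Cont, -2.51 ± 0.47 in HFD_O3 and -1.57 ± 0.29 in STD_Cont muscles (SD, n = 8 each). The differences were -1.39 ± 0.18 for HFD_Cont minus STD_Cont and -0.94 ± 0.18 for HFD_O3 minus STD_Cont (log2 ± SE). By size, the first stood at rank 12 among the falls of all gene names and the second at rank 37. All 8 HFD_Cont and all 8 HFD_O3 arrays lay below the STD_Cont median.

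HFD_O3 against HFD_Cont uses the same HFD_Cont arrays as the contrast that chose the gene. This difference too is therefore a description with no test. Hif3a was 0.45 ± 0.18 higher in HFD_O3 than in HFD_Cont muscles, with 6 of 8 HFD_O3 arrays above the HFD_Cont median. The difference ran from 0.35, without HFD_Cont array 5, to 0.55, without HFD_O3 array 1, when each array was left out in turn.

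**Figure D1:**
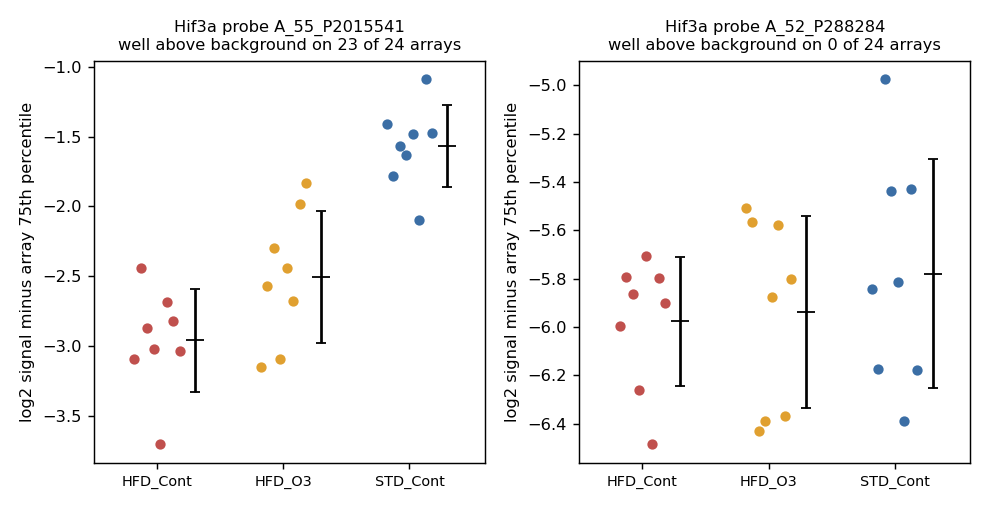
Levels of both Hif3a probes on the 24 arrays (vertical axis, log2 signal minus the array's 75th percentile; points, arrays; bars, mean ± SD, n = 8 in each group). On the probe in the left panel the 8 HFD_Cont arrays lie between -3.70 and -2.44, all below the STD_Cont arrays, and the HFD_O3 arrays overlap both groups, while the probe in the right panel was well above background on 0 arrays.

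The Hif3a signal was dim. Its processed intensity had a median of 28.8 units (12.9 to 44.7) in HFD_Cont, 37.0 (18.4 to 59.7) in HFD_O3 and 74.8 (59.4 to 111.0) in STD_Cont muscles, while the lowest signal counted as well above background on an array lay between 9.8 and 22.2 units. The probe was well above background on 23 of 24 arrays, the exception being HFD_Cont array 5. At such signals the size of the difference depends on how background is handled. Normexp correction with an offset of 50 gave -0.53 for HFD_Cont minus STD_Cont and -0.35 for HFD_O3 minus STD_Cont. The authors' deposited table, whose values closely follow the spot signal before background subtraction, gave -0.81 for the first and -0.58 for the second. All these values have the same sign and are smaller. Adding a constant, such as the normexp offset, shrinks the log ratios of a dim signal. Why the values from the deposited table are smaller was not tested.

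Hif3a was lower in both high fat groups on each slide. For HFD_Cont this sign was fixed in advance, since every HFD_Cont array lay below every STD_Cont array, so only the size is informative. HFD_Cont minus STD_Cont was -1.21, -1.80 and -1.29 within slides 1, 2 and 3, and HFD_O3 minus STD_Cont was -1.08, -1.18 and -0.36. With slide and row as a block the values were -1.40 for HFD_Cont and -0.91 for HFD_O3, each against STD_Cont. HFD_O3 minus HFD_Cont was 0.13, 0.63 and 0.94 within the 3 slides. On the 15 arrays left after 9 with a white adipocyte score over 0.5 above the median of all arrays were set aside, HFD_Cont minus STD_Cont was -1.38 and HFD_O3 minus STD_Cont was -0.88. The 9 were HFD_Cont arrays 2, 4, 5 and 7, HFD_O3 arrays 4 and 5, and STD_Cont arrays 1, 2 and 4. After subtraction of group means, Hif3a had a correlation of -0.16 with the white adipocyte score, 0.20 with an endothelial score of 13 markers and 0.03 with a slow fibre score of 10 markers over the 24 arrays, none past the threshold (permutation p adjusted over 75 relations of 0.738, 0.593 and 0.943).

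Hif1a and Epas1, the alpha subunits that activate transcription under low oxygen, were close in level in all groups. Hif1a had a median of 1.47 (1.27 to 1.66) in HFD_Cont, 1.53 (1.45 to 1.89) in HFD_O3 and 1.57 (1.29 to 1.75) in STD_Cont muscles. The 3 groups overlapped over most of their range, and the difference between HFD_Cont and STD_Cont was -0.08 ± 0.07 (limma adjusted p = 0.641). A second Hif1a probe, placed by the array files on the opposite, minus strand at chr12:75027538-75027597 (mm9), was dimmer and far more scattered, with SDs of 0.95 in HFD_Cont, 0.33 in HFD_O3 and 0.49 in STD_Cont muscles. As it lies on the strand opposite to the gene, it may not measure Hif1a mRNA. Another probe, well above background on 1 of 24 arrays, was not kept.

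Epas1, which encodes HIF-2 alpha and is named for its expression in endothelium, had a median of 5.83 (5.73 to 6.03) in HFD_Cont, 5.95 (5.52 to 6.10) in HFD_O3 and 5.98 (5.80 to 6.14) in STD_Cont muscles. The HFD_Cont arrays lay mostly in the lower part of the STD_Cont range, 7 of 8 of them below the STD_Cont median. The difference was -0.12 ± 0.07 (limma adjusted p = 0.402) and did not pass the threshold. The 13 endothelial markers had a mean level of 1.996 ± 0.10 in HFD_Cont, 2.10 ± 0.08 in HFD_O3 and 1.997 ± 0.16 in STD_Cont muscles.

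Arnt encodes the constitutive partner that all 3 alpha subunits need to bind DNA. On its brightest probe it had a median of 3.51 (3.44 to 3.69) in HFD_Cont, 3.53 (3.27 to 4.26) in HFD_O3 and 3.71 (3.68 to 4.13) in STD_Cont muscles. All 8 HFD_Cont arrays lay below the STD_Cont median, and the ranges touched only at their ends. The difference of HFD_Cont from STD_Cont was -0.26 ± 0.10 (unadjusted p = 0.0161, limma adjusted p = 0.171).

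All 3 kept Arnt probes gave a lower mean in HFD_Cont than in STD_Cont muscles, by -0.26, -0.32 and -0.27 on the log2 scale. Fitted probe by probe, the second of these, A_55_P2814820 at chr3:95278469-95278528 (mm9), had a limma adjusted p of 0.0499 over 29245 probes, of which 2.67% passed. On that probe the level was -0.15 ± 0.08 in HFD_Cont against 0.17 ± 0.23 in STD_Cont muscles (SD, n = 8 each).

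The call of Arnt changed when 1 array was left out. Without HFD_O3 array 7, which had the highest Arnt level of all 24 arrays (4.26), the adjusted p was 0.0304 for HFD_Cont against STD_Cont and 0.0487 for HFD_O3 against STD_Cont, where it was 0.529 with all arrays. The first comparison does not hold that array, and its difference stayed at -0.26 while the shared estimate of the spread changed. Over all gene names, leaving it out raised the calls from 581 to 977 in the first comparison and from 119 to 343 in the second. Arnt also passed in HFD_Cont against STD_Cont when only the 2 groups were fitted (adjusted p = 0.0266) and without HFD_O3 arrays 1 and 7 (0.0184). With slide and row as a block the difference was -0.18 (adjusted p = 0.599), and within slides 1, 2 and 3 it was -0.23, -0.42 and -0.13. HFD_O3 minus STD_Cont was -0.18 ± 0.10 over all slides but 0.30 within slide 3.

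The hydroxylases showed no difference past the threshold. Egln1, the prolyl hydroxylase best known for setting alpha subunit levels under normal oxygen, had a median of 7.07 (6.99 to 7.16) in HFD_Cont, 6.99 (6.85 to 7.09) in HFD_O3 and 7.07 (6.93 to 7.20) in STD_Cont muscles. Its SD was 0.06 in HFD_Cont, 0.07 in HFD_O3 and 0.09 in STD_Cont muscles, which left SEs of 0.04 on each difference. HFD_Cont minus STD_Cont was 0.02 (limma adjusted p = 0.862), and HFD_O3 minus HFD_Cont was -0.08 (adjusted p = 0.732) with 7 of 8 HFD_O3 arrays below the HFD_Cont median.

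Egln2, a second prolyl hydroxylase, had a median of 6.34 (6.04 to 6.42) in HFD_Cont, 6.17 (6.01 to 6.32) in HFD_O3 and 6.24 (6.01 to 6.38) in STD_Cont muscles. All 8 HFD_O3 arrays lay below the HFD_Cont median, although the ranges overlapped. HFD_O3 minus HFD_Cont was -0.12 ± 0.06 (unadjusted p = 0.0516, limma adjusted p = 0.699), and its second probe gave -0.13. HFD_Cont minus STD_Cont was 0.08 ± 0.06 (adjusted p = 0.578).

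Egln3, a prolyl hydroxylase that is itself a target of the hypoxia-inducible factors, had the largest SD of the 10 genes in each group (0.65 in HFD_Cont, 0.49 in HFD_O3 and 0.59 in STD_Cont muscles), taking the probe that stands for each gene. It had a median of 0.82 (-0.50 to 1.66) in HFD_Cont, 1.27 (0.58 to 1.83) in HFD_O3 and 0.98 (0.46 to 2.10) in STD_Cont muscles. The lowest value, in HFD_Cont array 4, came from the array with the lowest slow fibre score, 2.28. HFD_Cont minus STD_Cont was -0.29 ± 0.28 (limma adjusted p = 0.678), and it was -0.10 without HFD_Cont array 4.

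Hif1an, the asparaginyl hydroxylase, had a median of 2.18 (1.93 to 2.32) in HFD_Cont, 2.17 (1.88 to 2.26) in HFD_O3 and 2.18 (1.94 to 2.24) in STD_Cont muscles. HFD_Cont minus STD_Cont was 0.02 ± 0.06 (limma adjusted p = 0.929), and it turned negative without HFD_Cont array 4 or 6 or STD_Cont array 7. A second, dimmer probe gave 0.12 ± 0.14.

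Vhl, which recognises hydroxylated alpha subunits, had a median of 0.92 (0.72 to 1.13) in HFD_Cont, 1.01 (0.36 to 1.20) in HFD_O3 and 1.14 (0.90 to 1.22) in STD_Cont muscles. All 8 HFD_Cont arrays and 6 of 8 HFD_O3 arrays lay below the STD_Cont median. The differences from STD_Cont were -0.14 ± 0.09 for HFD_Cont (limma adjusted p = 0.480) and -0.17 ± 0.09 for HFD_O3 (0.501), neither past the threshold.

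**Figure D2:**
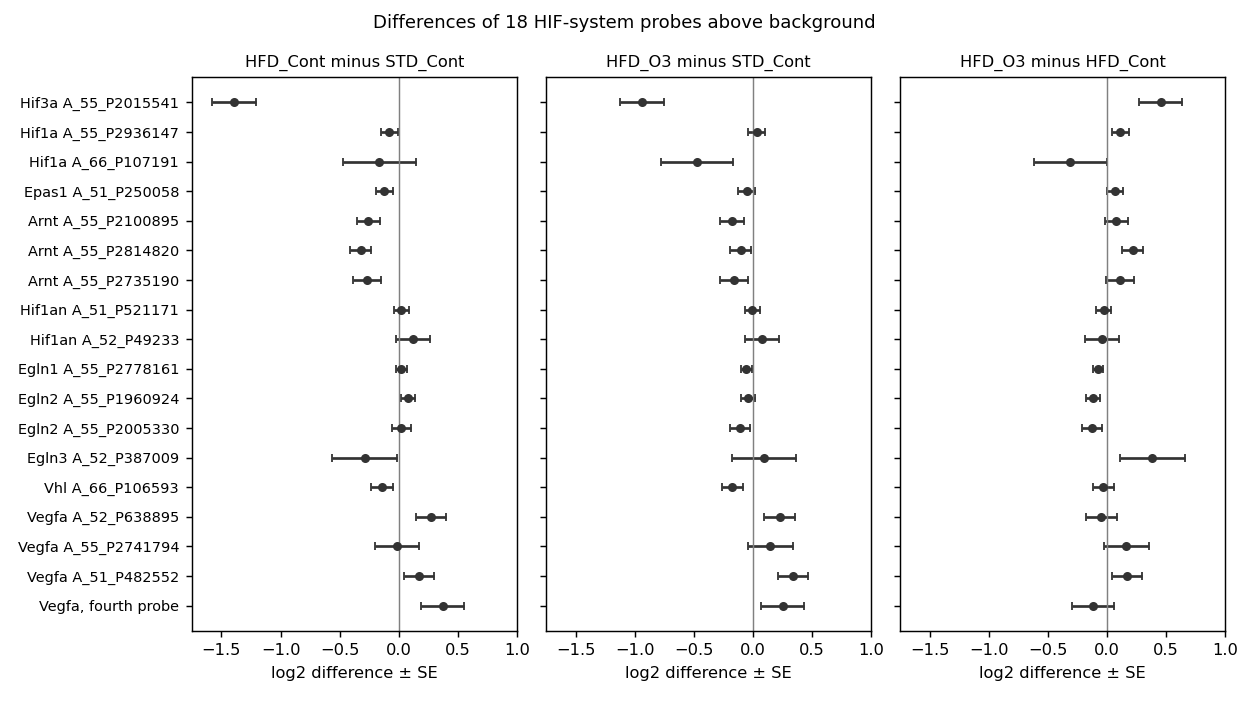
Differences of the 18 kept probes in the 3 comparisons (horizontal axis, log2 difference; points, limma estimate; bars, SE; 8 arrays in each group). Hif3a stands at -1.39 in HFD_Cont minus STD_Cont and at -0.94 in HFD_O3 minus STD_Cont, the 3 Arnt probes lie below 0 in both, and 3 of 4 Vegfa probes lie above 0 in the first.

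Vegfa encodes the growth factor that drives capillary growth and is the target of the pathway most studied in muscle. Its brightest probe had a median of 4.34 (3.88 to 4.52) in HFD_Cont, 4.37 (3.70 to 4.60) in HFD_O3 and 4.05 (3.59 to 4.38) in STD_Cont muscles. In HFD_Cont 7 of 8 arrays, and in HFD_O3 6 of 8, lay above the STD_Cont median, with overlapping ranges. HFD_Cont minus STD_Cont was 0.27 ± 0.13 (unadjusted p = 0.0481, limma adjusted p = 0.296), and HFD_O3 minus STD_Cont was 0.23 ± 0.13 (adjusted p = 0.548).

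The 4 Vegfa probes did not give the same difference between HFD_Cont and STD_Cont. The brightest gave 0.27, another 0.17 ± 0.12 and the fourth 0.37 ± 0.18, so that 3 of 4 had a higher mean in HFD_Cont, while the probe of the longer isoforms gave -0.01 ± 0.19. The difference between probes was not tested. On the probe of the longer isoforms STD_Cont array 4 stood at 3.99, with the next STD_Cont array at 3.24. In HFD_O3 minus STD_Cont that probe gave 0.15 ± 0.19, beside 0.23, 0.34 and 0.25 on the others. HFD_Cont minus STD_Cont on the brightest probe was 0.25, 0.17 and 0.30 within slides 1, 2 and 3. HFD_O3 minus STD_Cont was 0.25 and 0.54 within slides 1 and 2 but -0.32 within slide 3.

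**Figure D3:**
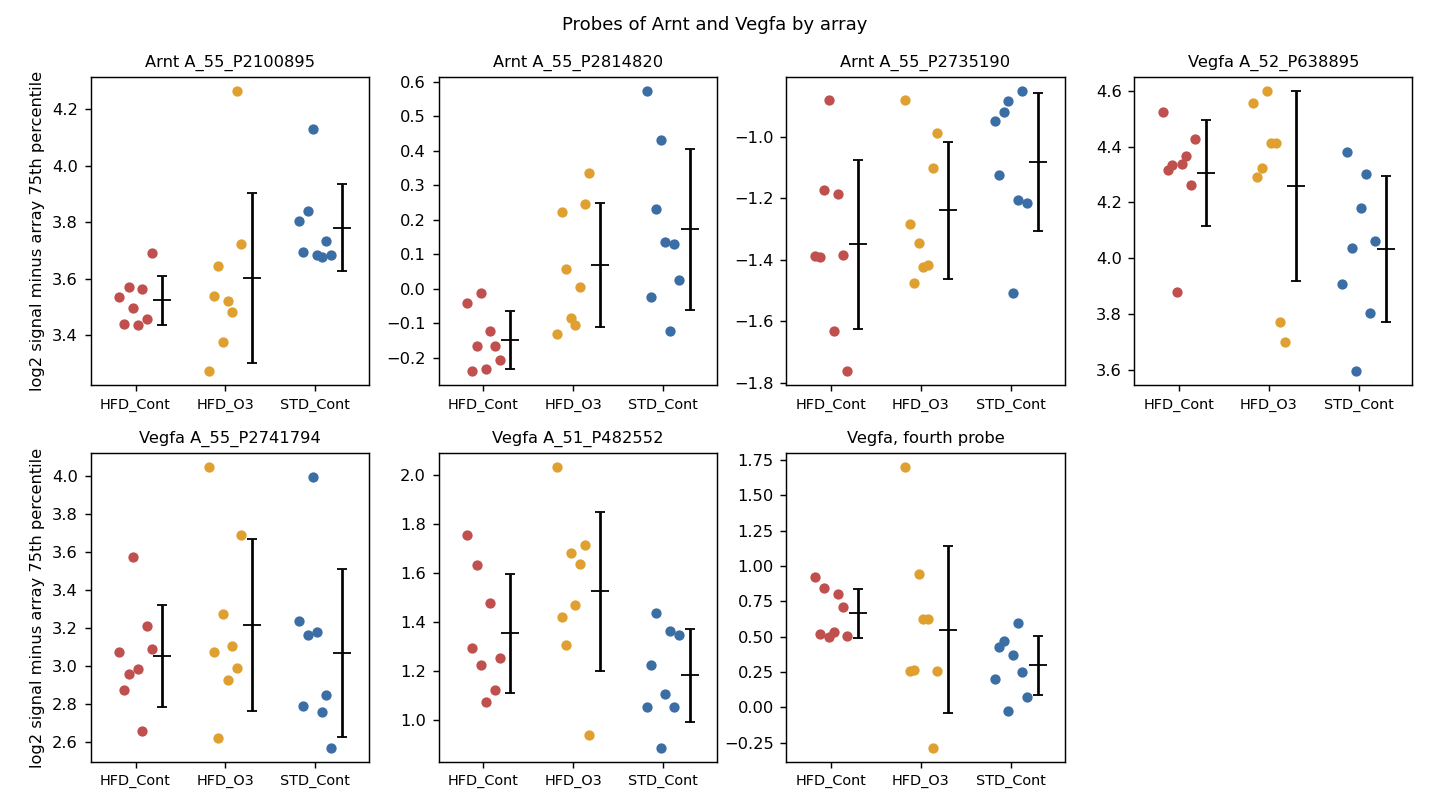
Levels of the 3 kept Arnt and 4 kept Vegfa probes on the 24 arrays (vertical axis, log2 signal minus the array's 75th percentile; points, arrays; bars, mean ± SD, n = 8 in each group; each panel has its own scale). HFD_O3 array 7 stands at 4.26 in the first Arnt panel, above the other HFD_O3 arrays, and HFD_Cont array 4 at 3.88 in the first Vegfa panel, below the other HFD_Cont arrays.

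Of 24 genes written down as regulators of the alpha subunits (ubiquitin ligase parts, coactivators, chaperones and others), 23 were measured. In HFD_Cont against STD_Cont 1 rose and 1 fell, with a list median of 0.05 against 0.00 for all gene names. Of all gene names 1.43% rose and 1.48% fell there. At an unadjusted limma p under 0.05, 2 of the 23 passed there, beside 16.6% of all gene names. Cited2, which competes with the alpha subunits for the coactivator p300, fell to 3.80 ± 0.27 in HFD_Cont, against 4.49 ± 0.35 in STD_Cont muscles (SD, n = 8 each), a difference of -0.69 ± 0.15 (limma adjusted p = 0.0174). Cited4, of the same family, rose to 2.57 ± 0.27 in HFD_Cont, against 1.80 ± 0.51 in STD_Cont muscles, a difference of 0.77 ± 0.20 (adjusted p = 0.0391).

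Cited2 passed in all 24 fits that left out 1 array. Cited4 passed in 12 of them, and lost the call without HFD_Cont array 1, 2, 4, 5, 6, 7 or 8 or STD_Cont array 1, 3, 4, 7 or 8, with an adjusted p of up to 0.0927. In HFD_O3 against STD_Cont 0 of the 23 passed, with Cited2 at -0.35 ± 0.15 (limma adjusted p = 0.358) and Hsp90aa1, a chaperone that binds alpha subunits, at 0.22 ± 0.11 (0.486). In HFD_O3 against HFD_Cont 0 passed, with Cited2 at 0.34 (0.676) and Cited4 at -0.41 (0.699).

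All 28 glucose and energy genes listed as targets of the pathway were measured, among them the glycolytic enzymes. In HFD_Cont against STD_Cont 0 of 28 passed, their differences ran from -0.60 to 0.27, and the median was -0.04 against 0.00 for all gene names. The smallest adjusted p-values were those of Pgam1, a glycolytic mutase, at 0.27 ± 0.08 (limma adjusted p = 0.0731), and Ppp1r3c, a glycogen-targeting subunit of protein phosphatase 1, at -0.60 ± 0.18 (0.0767). Pgam1 passed without STD_Cont array 6 (0.0178), and Ppp1r3c without STD_Cont array 6 (0.0270) or HFD_Cont array 6 (0.0393). At an unadjusted limma p under 0.05, 9 of the 28 passed in HFD_Cont against STD_Cont, beside 16.6% of all gene names. The count was 10 of 28 in HFD_O3 against STD_Cont, beside 11.2%, and 2 of 28 in HFD_O3 against HFD_Cont, beside 7.08%. As the list was chosen with earlier results of these data known, these counts are a description and were not tested.

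Aldoc, an aldolase isoform, fell in HFD_O3 against STD_Cont and was the 1 of 28 that passed there, where 0.191% of all gene names fell. Its level was -1.77 ± 0.22 in HFD_O3 against -1.30 ± 0.19 in STD_Cont muscles (SD, n = 8 each), a difference of -0.47 ± 0.09 (limma adjusted p = 0.0195), with 8 of 8 HFD_O3 arrays below the STD_Cont median. It passed in all 24 fits that left out 1 array. It did not with normexp, where the difference was -0.22 (adjusted p = 0.0698), without a filter (0.0589), with only the 2 groups (0.0828) or with array weights (0.0506). In HFD_O3 against HFD_Cont 0 of 28 passed, with Aldoc at -0.41 (adjusted p = 0.341) and Pfkfb3, which makes an activator of glycolysis, at 0.38 (0.650).

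Of 35 other listed targets 33 were measured, and Car12 and Epo were not kept by the filter. In HFD_Cont against STD_Cont 1 rose, 1 fell and the median was -0.04, where 1.43% of all gene names rose and 1.48% fell. Differences there ran from -1.2 to 0.61. At an unadjusted limma p under 0.05, 13 of the 33 passed there, beside 16.6% of all gene names. The count was 5 of 33 in HFD_O3 against STD_Cont, beside 11.2%, and 3 of 33 in HFD_O3 against HFD_Cont, beside 7.08%. This list too was chosen with earlier results known, so the counts are a description. Hmox1, the haem-degrading enzyme, fell to 1.02 ± 0.19 in HFD_Cont, against 1.74 ± 0.26 in STD_Cont muscles (SD, n = 8 each). That was a difference of -0.72 ± 0.13 (limma adjusted p = 0.0103), with 8 of 8 HFD_Cont arrays below the STD_Cont median, and it passed in all 24 fits that left out 1 array. In HFD_O3 against HFD_Cont 0 of 33 passed, with Pnrc1, a nuclear receptor coactivator, at 0.22 (adjusted p = 0.638) and Hmox1 at 0.32 (0.651).

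Nos2, the inducible nitric oxide synthase, rose in both high fat groups, with a level of 0.23 ± 0.15 in HFD_Cont and 0.26 ± 0.16 in HFD_O3 against -0.15 ± 0.25 in STD_Cont muscles (SD, n = 8 each). The differences from STD_Cont, which share the STD_Cont arrays, were 0.38 ± 0.09 for HFD_Cont (limma adjusted p = 0.0308) and 0.41 ± 0.09 for HFD_O3 (0.0455). It was the 1 of 33 that passed in HFD_O3 against STD_Cont, where 0.597% of all gene names passed. Both calls were fragile: the first was lost without HFD_Cont array 3, 4, 5 or 7 or STD_Cont array 3, 4 or 7 (adjusted p up to 0.0691). The second held in 7 of 24 fits, those without HFD_Cont array 3 or 6, HFD_O3 array 7 or 8, or STD_Cont array 1, 6 or 8, and reached 0.105 in the rest.

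Among the other ligands and receptors of the VEGF and angiopoietin families 11 of 12 were measured, Flt4 being dim. In HFD_Cont against STD_Cont 3 of the 11 rose, where 1.43% of all gene names did. At an unadjusted limma p under 0.05, 4 of the 11 passed there, beside 16.6% of all gene names. The list was chosen with earlier results of these data known, so the counts are a description. Kdr, the main signalling receptor of VEGF-A on endothelium, had a level of 2.75 ± 0.15 in HFD_Cont against 2.30 ± 0.17 in STD_Cont muscles (SD, n = 8 each), a difference of 0.45 ± 0.10 (limma adjusted p = 0.0210). Angpt1, a ligand that stabilises vessels, was higher by 0.44 ± 0.12 (adjusted p = 0.0445), and Nrp1, a co-receptor, by 0.23 ± 0.06 (0.0478). The mean level of 13 endothelial markers, all well above background on all arrays, ran from 1.83 to 2.17 in HFD_Cont and from 1.80 to 2.30 in STD_Cont muscles. Its group mean was 1.996 in HFD_Cont and 1.997 in STD_Cont. Single markers differed by -0.41 to 0.21, and 4 of the 13 had an unadjusted limma p under 0.05, beside 16.6% of all gene names.

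Kdr passed in all 24 fits that left out 1 array. Angpt1 passed in 7 of them, without HFD_O3 array 1, 2, 4, 6, 7 or 8 or STD_Cont array 6, and otherwise reached 0.101. Nrp1 passed in 6, without HFD_Cont array 8, HFD_O3 array 1, 4, 7 or 8 or STD_Cont array 6, and otherwise reached 0.0924. In HFD_O3 against STD_Cont 0 of the 11 passed, with Kdr at 0.40 ± 0.10 (limma adjusted p = 0.0777) and Nrp1 at 0.22 ± 0.06 (0.119). Kdr passed there without STD_Cont array 6 (0.0451), HFD_O3 array 7 (0.0273) or HFD_O3 array 8 (0.0295), and Nrp1 without HFD_O3 array 8 (0.0324). In HFD_O3 against HFD_Cont 0 passed, with Pgf at -0.55 (adjusted p = 0.722) and Vegfd at 0.26 (0.759).

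The 9 calls in these lists, counting Nos2 in both of its comparisons, had the same sign on every slide. Of the 17 alternatives other than leaving out 1 array or taking 1 slide alone, Cited2 and Hmox1 passed in 15, Kdr in 14, Cited4 and Nos2 in HFD_Cont in 13, Angpt1 in 12, Aldoc in 11, and Nrp1 and Nos2 in HFD_O3 in 10. All 9 were lost when slide and row entered as a block, with adjusted p-values from 0.0637 for Aldoc to 0.274 for Nos2 in HFD_Cont, and when 9 arrays with high white adipocyte scores were left out, where 0 of all gene names passed. In those 2 settings their differences remained between -0.74 for Hmox1 and 0.66 for Cited4, and Nrp1 had the smallest, at 0.21 in the first and 0.12 in the second.

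**Figure D4:**
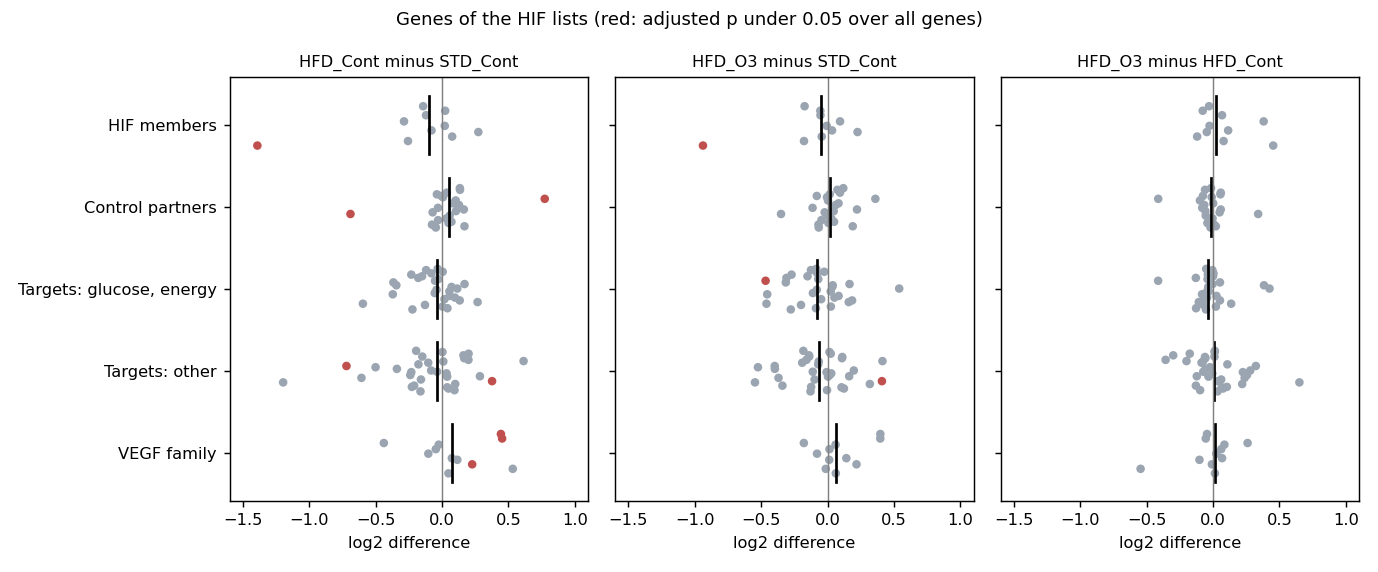
Differences of the genes of the 5 lists in the 3 comparisons (horizontal axis, log2 difference; points, genes; black bars, list medians; red, adjusted p under 0.05 over all gene names by limma). The list medians lie near 0 in each panel, with single genes spread to both sides. The red point of the members is Hif3a, which was chosen for that difference, and the panel of HFD_O3 minus HFD_Cont holds 0 red points.

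Within groups, some members varied together from array to array. After each group mean was subtracted, 75 relations were computed over the 24 arrays, 45 between members and 30 between members and the slow fibre, endothelial and white adipocyte scores. By permutation with adjustment over all 75, 7 passed by Pearson's r and 4 of them also by Spearman's rho. The arrays share their labelling and scaling across all members.

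Hif1a and Egln3 varied together, with r = 0.76 (adjusted permutation p = 0.00375) and rho = 0.72 (0.0195). Without the 2 arrays farthest from the median of Hif1a r was 0.76, and within the 3 slides it was 0.81, 0.66 and 0.68. Egln3 also followed the slow fibre score, with r = 0.75 (adjusted permutation p = 0.00863) and rho = 0.61 (0.0473). That r was 0.59 without HFD_Cont array 4 and STD_Cont array 7, and 0.85, 0.72 and 0.42 within slides 1, 2 and 3. Hif1a had r = 0.51 with the slow fibre score (adjusted permutation p = 0.0617) and rho = 0.42 (0.263), neither past the threshold. Whether fibre composition has a part in the relation of Hif1a and Egln3 was not tested.

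Vegfa ran against Arnt and against Hif3a, each gene taken on its brightest probe. The other Vegfa probes were not examined in these relations. STD_Cont array 4 was the lowest of its group on the brightest Vegfa probe (3.59) and the highest on the probe of the longer isoforms (3.99). For Arnt and Vegfa r was -0.68 (adjusted permutation p = 0.0231) and rho -0.65 (0.0440). It was -0.50 without HFD_O3 array 7 and STD_Cont array 4, the arrays with the highest Arnt levels, and -0.57, -0.78 and -0.60 within the slides. For Hif3a and Vegfa r was -0.62 (adjusted permutation p = 0.0375) and rho -0.68 (0.0244), with r at -0.64 without HFD_Cont array 5 and HFD_O3 array 1. Within slides 1, 2 and 3 that r was -0.74, -0.29 and -0.90. Hif3a and Arnt, at r = 0.51, did not pass (adjusted permutation p = 0.132).

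The 3 relations that passed by r and not by rho all involved Hif1an. They were its relations with Egln2 (r = 0.67, adjusted permutation p = 0.0186, rho = 0.42, 0.274), Hif1a (r = -0.66, 0.0186, rho = -0.51, 0.149) and Egln3 (r = -0.62, 0.0231, rho = -0.51, 0.149). Without HFD_O3 array 1 and HFD_Cont array 3 the first was 0.48, and within slide 2 it was -0.47.

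**Figure D5:**
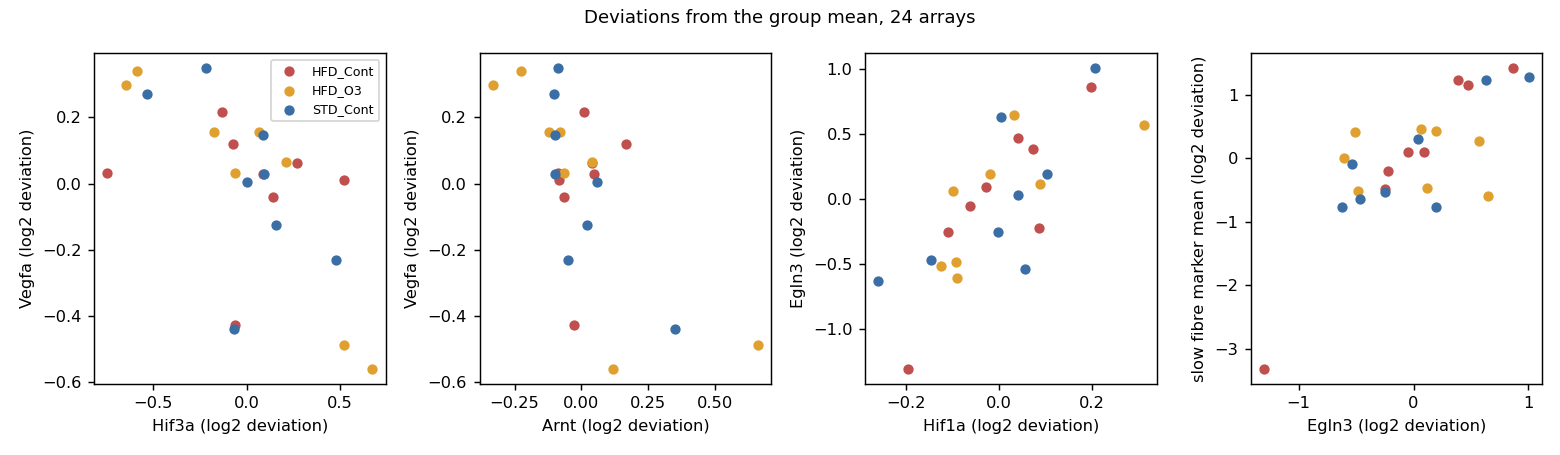
Deviations from the group mean on the 24 arrays for the 4 relations that passed by both r and rho (axes, log2 deviation; points, arrays, coloured by group). With each gene on its brightest probe, Vegfa is lower where Hif3a or Arnt is higher and Egln3 is higher where Hif1a is. In the slow fibre score 1 HFD_Cont array lies far below the others.

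Of all measured genes with a RefSeq symbol, 12657 were ranked by how closely their deviations from the group means followed those of Hif3a over the 24 arrays. The closest were Tbp, the TATA-binding protein (r = 0.80, rho = 0.76), Washc2, a subunit of an endosomal complex (0.76, 0.72), Prpf4, a splicing factor (0.76, 0.66), Rab7, a GTPase of late endosomes (0.75, 0.74), and Vmn2r3 (0.75, 0.64). The most opposed were Wipf1 (r = -0.69, rho = -0.61), Ptms (-0.68, -0.64) and Mxra7 (-0.67, -0.56). With group means left in, r was 0.84 for Rab7, 0.82 for Prpf4 and 0.77 for Tbp. These values are the extremes of 12657 correlations over 24 arrays and are given as a description.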

How the data were processed

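Per the labels' protocols, 200 ng of total RNA per sample was labelled with Cy3. Agilent Feature Extraction 10.10.1.1 turned the images into spot values, and mm9 is the build of the probe positions, per the file headers. Of the deposited spot intensity columns, the background-subtracted processed signal was used. The authors' deposited value table holds log2 values (limma is named, with no version, in the submitters' processing notes). It has 30124 probes, 18 of them the members', and its column medians lie between 7.694 and 7.699. Its lowest correlation with an array's own log2 median spot signal, taken before background subtraction, was 0.9996. The processed signal used here was not part of that check.

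Outlier spots were removed, log2 spot signals of a probe averaged, and the 75th percentile of the non-control probes on each array subtracted. Probes were named through RefSeq accessions (32994 of 56605) or the array's name, and a gene was represented by its probe of highest mean, as 6303 names had over 1 kept probe. Groups were compared with limma 3.58.1 (R 4.3.3), 8 arrays each and no covariates, with Benjamini-Hochberg adjustment over 19937 names at a threshold of 0.05. The number of arrays limits the precision. The script was tested on simulated data. Correlations used 100000 permutations. Alternatives changed the background correction, normalization, filter, probe rule, slide, row, replicate block, variance model, arrays and adipocyte content.

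The members and the gene lists were chosen with earlier results of these data known. The text names all members, list genes past the threshold (up to 4 per direction) or, where none passed, the 2 with the smallest p, and the 5 genes most like and 3 most opposed to Hif3a. The sequence of 1 Vegfa probe is not reported here.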

Additional observations from a re-analysis of the deposited data

Results flagged for a closer look

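In 9 of 54 sets of 8 arrays (18 probes in 3 groups), 1 array stood far from the others, with a gap to its neighbour, as a share of the set's range, above Dixon's critical value for 8 values. Chance gives such a gap in about 1 in 20 sets.

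Arrays of HFD_O3 account for 4 of the 9. HFD_O3 array 1 was the lowest of its group for Epas1, at 5.52 with the next array at 5.85, for Hif1an, at 1.88 with the next at 2.12, and for the second Egln2 probe, at 2.44 with the next at 2.73. HFD_O3 array 7 was the highest for Arnt, at 4.26 with the next at 3.72.

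In HFD_Cont, array 4 was the lowest for Vegfa on its brightest probe, at 3.88 with the next at 4.26, and array 8 was the highest for the minus-strand Hif1a probe, at 0.25 with the next at -1.97. In STD_Cont, array 3 was the highest for that Hif1a probe, at -0.76 with the next at -1.77. STD_Cont array 4 was the highest for Arnt, at 4.13 with the next at 3.84, and for the Vegfa probe of the longer isoforms, at 3.99 with the next at 3.24.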

How the results depend on the processing

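Hif3a kept its sign under every alternative in which it could be fitted. For HFD_Cont minus STD_Cont the sign could not turn where arrays were only left out, as the 2 groups did not overlap. Hif3a has no value where only probes well above background on all 24 arrays were kept, since that filter removes it. Leaving out 1 array at a time gave -1.47 to -1.29 for HFD_Cont minus STD_Cont, -1.03 to -0.85 for HFD_O3 minus STD_Cont and 0.35 to 0.55 for HFD_O3 minus HFD_Cont. Its difference between HFD_Cont and STD_Cont moved to -0.53 with normexp, -0.81 in the authors' deposited table and -1.80 within slide 2. Between HFD_O3 and STD_Cont it moved to -0.35, -0.58 and, within slide 3, -0.36.

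The 581 gene names past the threshold in HFD_Cont against STD_Cont became 135 without a filter, 73 with slide and row as a block, 1166 with only the 2 groups, 1168 with array weights and 1238 without HFD_O3 arrays 1 and 7. The 119 in HFD_O3 against STD_Cont became 46 without a filter, 47 with slide and row and 36 with only the 2 groups. Both counts were 0 within each slide and 0 without the 9 arrays of high white adipocyte score, which leave fewer samples. Leaving out 1 array gave 182 (without STD_Cont array 1) to 977 (without HFD_O3 array 7) for the first, 68 (without STD_Cont array 3 or HFD_O3 array 6) to 343 (without HFD_O3 array 7) for the second, and 0 to 1 for HFD_O3 against HFD_Cont. That comparison had 0 by limma, with 1412 at an unadjusted p under 0.05, and 0 under every other alternative.

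Signs turned mostly within single slides, and the cause was not tested. For HFD_Cont minus STD_Cont, slide 1 gave Hif1a 0.053, Hif1an -0.071, Egln2 -0.0095 and Egln3 0.50, and slide 3 gave Egln1 -0.0045. Without the adipocyte-rich arrays Hif1a was 0.0099 and Hif1an -0.045, and with slide and row Hif1an was -0.0085. Leaving out 1 array gave -0.0096 to 0.053 for Hif1an. For HFD_O3 minus STD_Cont, slide 3 gave Arnt 0.30, Vegfa -0.32, Vhl 0.044, Cited2 0.14 and Kdr -0.016. Pgf in HFD_O3 minus HFD_Cont was 0.078 without the adipocyte-rich arrays.

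Whether the replicate numbers in the titles pair the samples is not known. The correlation of deviations between same-numbered samples had a median of 0.04 and a highest value of 0.37, and 6 of 24 pairs were over 0.1. Between other samples of different groups the median was -0.006. Same-numbered samples mostly lay on the same slide, so these values cannot separate pairing from slide. With the replicate number as a block the counts were 628, 89 and 0, Hif3a stood at -1.39, -0.94 and 0.45 in the 3 comparisons, and both Nos2 calls were lost. For the dim Hif3a probe the size of the difference depends on background handling.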
